A study of Mus musculus with 7 samples.

Results

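Paneth cells are granule-filled secretory cells at the base of the small intestinal crypts. They release antimicrobial proteins into the crypt lumen and give signals to the neighbouring stem cells. Alpha-defensins are their best known products, and 8 other genes are described here: Lyz1 (lysozyme, which cuts bacterial cell walls), Pla2g2a (a secreted phospholipase that attacks bacterial membranes), Ang4 (a microbicidal protein of the ribonuclease family), Itln1 and Mptx2 (a lectin and a pentraxin-like protein), the proteases Mmp7 and Habp2, and Nupr1 (a small nuclear stress-response protein). Mmp7 is the mouse enzyme that cuts alpha-defensin precursors into their active form, and Itln1 binds galactofuranose, a sugar of microbial surfaces. Itln1 and Ang4 are also made by goblet cells and Nupr1 by many cell types, so they are not exclusive to Paneth cells. The genes were chosen by symbol. Of the 8 symbols, 7 stand in the deposited gene table, and Mptx2 was found by its Ensembl ID under the older name Gm11062. All 8, of 37310 genes in the table, passed the filter on low counts.

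The series compared 3 purified diets, fed from weaning to 3 months of age, in mice that carry BmicreERT2 and Rosa26RFP. BmicreERT2 is an inducible Cre under control of Bmi1, and it switches on the red fluorescent reporter at Rosa26 in cells that express Bmi1 and in their descendants. Crypt cells with high red fluorescence, Epcam on their surface and no CD45 were sorted and their RNA sequenced in bulk. There were 2 libraries for NWD2, 3 for NWD1 and 2 for AIN76A, the control diet. As background, NWD1 models a Western diet in that it is high in fat and low in several nutrients, calcium and vitamin D3 among them, and NWD2 has calcium and vitamin D3 raised again. Every library was labelled male except NWD1 replicate 2. Both NWD2 libraries and NWD1 replicate 3 carry the same i5 sequencing index, and NWD1 replicates 1 and 2 and both AIN76A libraries carry another. The labels give the tissue only as intestine, and they give neither the number of animals per library nor the time of Cre induction, and nothing says that libraries came from separate animals, so p-values measure the spread between these libraries.

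Total counts ran from 14034315 in NWD1 replicate 3 to 77959407 in NWD2 replicate 2. The table of TPM (transcript levels scaled for gene length and depth) has a column headed as a 3rd NWD2 replicate that matches no sample, while NWD1 replicate 3 has no TPM column. The diet of NWD1 replicate 3, which carries the i5 index of the NWD2 libraries, rests here on its title and diet label. Whether that label is right was not tested, and no fit counted this library as NWD2. For that reason several results are also given without NWD1 replicate 3. NWD2 replicate 2 had the lowest Epcam, 225 CPM (counts scaled to library size with TMM factors) against 510 to 1338 in the other libraries. Bmi1, the gene that marks these cells, was at 2.12 to 5.25 CPM. In bulk RNA, fewer cells of a type and less RNA per cell cannot be told apart.

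The Paneth cell genes were abundant in these sorted cells. By mean TPM over the 6 libraries with a TPM column, Lyz1 ranked 8th and Itln1 22nd of all genes, with medians of 11586 and 5254 TPM. Ang4 had a median of 1336, Mptx2 of 450, Mmp7 of 259, Pla2g2a of 47.6, Habp2 of 20.8 and Nupr1 of 10.3 TPM. By mean TPM, Pla2g2a, Habp2 and Nupr1 ranked 2197th, 3863rd and 5423rd, far below the other 5.

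Lyz1 and its neighbour on chromosome 10, Lyz2, show how differently near relatives were represented. Lyz2 encodes the lysozyme of macrophages and other myeloid cells. Lyz1 was 2004 to 6805 times as high as Lyz2 on the TPM scale, with 6215 to 17127 TPM against 1.26 to 6.44 TPM over the 6 libraries. The 250 bases before the annotated starts of both genes are printed because these windows are alike although the levels are not. They come from RefSeq on build GRCm38.p6, while the deposited counts were made on mm9. Both lie on the minus strand and read 5′ to 3′ toward the start, Lyz1 at chr10:117292869-117293118 and Lyz2 at chr10:117282273-117282522. Capitals mark bases that differ from the other window or have no partner in it.
Lyz1: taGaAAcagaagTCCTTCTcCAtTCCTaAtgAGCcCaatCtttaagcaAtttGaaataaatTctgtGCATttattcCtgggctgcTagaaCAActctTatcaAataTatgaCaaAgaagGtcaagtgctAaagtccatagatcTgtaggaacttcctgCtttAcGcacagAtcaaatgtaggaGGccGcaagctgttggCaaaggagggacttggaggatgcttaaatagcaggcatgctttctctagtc
Lyz2: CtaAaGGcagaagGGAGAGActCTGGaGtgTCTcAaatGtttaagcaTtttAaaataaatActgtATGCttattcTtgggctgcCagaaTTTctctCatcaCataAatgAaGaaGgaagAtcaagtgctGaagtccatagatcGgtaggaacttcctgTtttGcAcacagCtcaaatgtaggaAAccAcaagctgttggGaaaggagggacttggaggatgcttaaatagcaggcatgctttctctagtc
Of 248 paired bases, 200 were the same (80.6%), and the 50 bases next to the start were identical. The alignment describes these windows only and says nothing of how either gene is controlled.

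Mptx2 and its relative Mptx1, both on chromosome 1, are shown for the same reason. Mptx2 had 303 to 1109 TPM and Mptx1 9.96 to 60.0 TPM, and their ratio went from 9.56 to 111 between libraries. The windows are Mptx2 at chr1:173277757-173278006 on the minus strand and Mptx1 at chr1:174330268-174330517 on the plus strand, with capitals as above.
Mptx2: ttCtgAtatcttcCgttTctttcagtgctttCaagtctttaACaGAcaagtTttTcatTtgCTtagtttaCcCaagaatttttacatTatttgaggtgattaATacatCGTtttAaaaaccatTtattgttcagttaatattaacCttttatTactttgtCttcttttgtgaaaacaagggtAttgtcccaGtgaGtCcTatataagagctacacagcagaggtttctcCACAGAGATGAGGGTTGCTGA
Mptx1: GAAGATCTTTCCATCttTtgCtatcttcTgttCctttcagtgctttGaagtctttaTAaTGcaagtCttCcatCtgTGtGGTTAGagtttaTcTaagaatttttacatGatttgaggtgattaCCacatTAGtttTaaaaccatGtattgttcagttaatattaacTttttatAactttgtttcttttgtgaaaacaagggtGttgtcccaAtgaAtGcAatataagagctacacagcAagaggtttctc
Here 197 of 228 paired bases (86.4%) were the same, and 22 bases of each window had no partner. The number of identical bases next to the start was 0. How reads that match both members of such a pair were counted is not given in the sources used here, so the split between close relatives is uncertain.

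**Figure D1:**
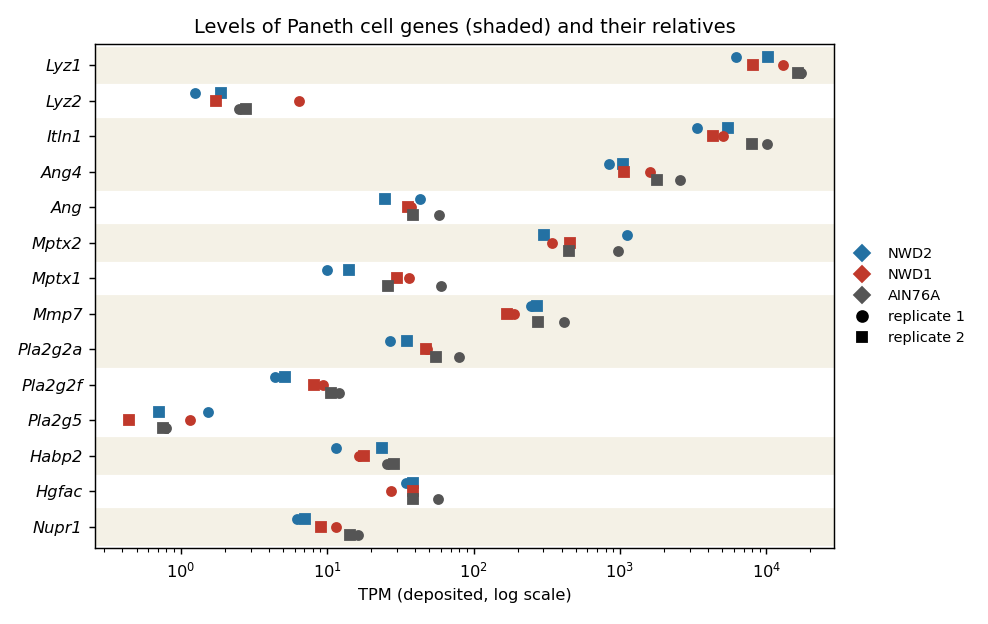
Deposited TPM (log axis) of the 8 Paneth cell genes (shaded rows) and of relatives with an average of at least 1 CPM other than Pla2g2d, in the 6 libraries with a TPM column, with NWD2 in blue, NWD1 in red and AIN76A in grey. Lyz1, at 6215 to 17127 TPM, lies far to the right of Lyz2, at 1.26 to 6.44 TPM, whereas Habp2 lies to the left of its relative Hgfac.

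With NWD2 against AIN76A, all 8 genes had negative log2 fold changes, from -1.20 to -0.11 with a median of -0.997, where the median of all genes tested was -0.030 and 52.6% of them were negative. EdgeR, by its quasi-likelihood test and p-values adjusted by Benjamini and Hochberg's method over 14626 genes, called none of the 8 and none of the genes tested (0%), where 3.83% had an unadjusted p under 0.05. Limma voom called none either. DESeq2 called 52 genes (0.356%), none of them among the 8. At an unadjusted edgeR p under 0.05 there were 4 of the 8, namely Ang4, Itln1, Pla2g2a and Nupr1, all lower with NWD2, beside 2.65% of all genes tested. In 5 of the 8, those 4 and Lyz1, both NWD2 libraries lay below both AIN76A libraries, as did 13.2% of all genes tested. Without AIN76A replicate 2, all 8 had that order, beside 35% of all genes tested. It was held by 5 without AIN76A replicate 1, beside 28.4%, and by 6 without NWD2 replicate 1, beside 39.3%. Leaving out NWD2 replicate 2 gave 7, beside 26.1%. These counts are over genes measured in the same 4 libraries, so they are not 8 separate observations. NWD1 replicate 3, whose diet label was not tested, lay above AIN76A replicate 2 in Ang4, Pla2g2a and Nupr1 but not in Lyz1 and Itln1.

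With NWD1 against AIN76A, all 8 were again negative, from -1.02 to -0.05 with a median of -0.54, although Mptx2 was at 0.087 with library size scaling and 0.25 with a sex term. The median of all genes tested was 0.0078, and 49.4% were negative. EdgeR called none of them and no gene at all (0%), with 3.42% at an unadjusted p under 0.05. No gene was called by limma voom, and DESeq2 called 1 gene (0.00684%) that was not among them. Itln1 alone had an unadjusted edgeR p under 0.05, beside 0.896% of all genes tested that did so and were lower. Lyz1 and Itln1 were the genes whose NWD1 libraries all lay below both AIN76A libraries, a pattern held by 8.61% of all genes tested. Without NWD1 replicate 3 that was so for all 8, beside 14.1% of all genes tested, and without AIN76A replicate 2 for 7 of them, beside 30.8%. It was so for only 2 without AIN76A replicate 1, NWD1 replicate 1 or NWD1 replicate 2, beside 17.8%, 24.1% and 13.3%. Both of these comparisons use the same 2 AIN76A libraries, so their shared direction is not independent.

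With NWD2 against NWD1, 6 of the 8 were negative, and the median was -0.14, beside 0.049 for all genes tested, of which 46.5% were negative. No gene was called by edgeR (0%) or limma voom, DESeq2 called 174 (1.21%) with none of the 8 among them, and none of the 8 had an unadjusted edgeR p under 0.05, beside 7.89% of all genes tested that did, 6.75% being lower. Pla2g2a and Nupr1 had both NWD2 libraries below all 3 NWD1 libraries, as had 14.5% of all genes tested. Without NWD1 replicate 3 there were again 2, beside 20.6% of all genes tested, and 4 of the 8 had negative fold changes. Without NWD1 replicate 2 there were 4 genes below without overlap, beside 18.8%, and without NWD2 replicate 2 there were 6, beside 23.7%. Leaving out NWD1 replicate 1 or NWD2 replicate 1 gave 2, beside 19.7% and 30.6%. Mmp7 and Itln1 had positive values, of 0.32 and 0.011, which were -0.28 for Mmp7 with an i5 term and -0.29 for Itln1 with library size scaling.

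AIN76A replicate 1 was the highest of the 7 libraries for 7 of the 8 genes and the 2nd highest for Mptx2. NWD1 replicate 3 was among the 2 highest for 6 of the 8, and AIN76A replicate 2 for 2 of them. NWD2 replicate 1 was the lowest for 6 of the 8. Without AIN76A replicate 1 the medians were -0.64 with NWD2 and -0.19 with NWD1, and 6 of the 8 were negative in each comparison. Without AIN76A replicate 2 the NWD1 median was -0.85, and without NWD1 replicate 3 it was -0.90. Without NWD2 replicate 2, 7 of the 8 were negative with NWD2 against AIN76A. With NWD2 against NWD1 the median depended on single libraries, at -0.78 without NWD2 replicate 2, -0.079 without NWD2 replicate 1, -0.32 without NWD1 replicate 1, -0.39 without NWD1 replicate 2 and 0.022 without NWD1 replicate 3. With NWD1 against AIN76A and sex as a term, so that the female library has no weight in the diet effect, the median was -0.44.

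No i5 index is shared by NWD2 and AIN76A libraries, so their diet and index cannot be told apart within an index. A fit with the index as a term gave medians of -1.48 with NWD2 against AIN76A, -0.90 with NWD1 against AIN76A and -0.68 with NWD2 against NWD1, and called none of the 8. In that fit the index effect rests on NWD1 replicate 3 alone. Within the index that AIN76A shares with NWD1 replicates 1 and 2, the NWD1 median was the -0.90 given for the fit without NWD1 replicate 3.

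**Figure D2:**
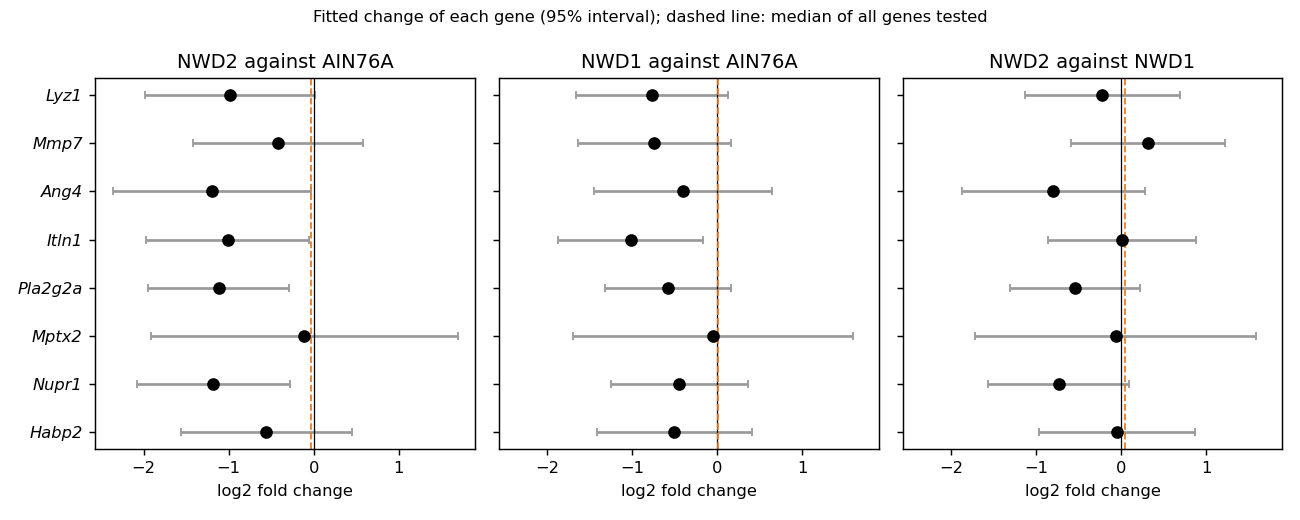
Fitted log2 fold change of each of the 8 genes (points) with its 95% interval (bars) in the 3 comparisons, beside the median of all genes tested (dashed line). Both comparisons with AIN76A have all 8 points left of 0, Mptx2 close to it and at 0.087 with NWD1 under library size scaling, and the Mptx2 interval is the widest in each panel.

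Lyz1 had 4122 and 7978 CPM with NWD2, 8143, 4921 and 8079 CPM with NWD1, and 13564 and 10406 CPM with AIN76A, in the order of the replicate numbers. Every library of the 2 Western-style diets was below both control libraries, and those of NWD2 and NWD1 overlapped. The means were 6050 ± 2726 (SD, n = 2), 7048 ± 1842 (SD, n = 3) and 11985 ± 2233 CPM (SD, n = 2). The log2 fold change was -0.99 with NWD2 against AIN76A (95% interval -1.99 to 0.01, edgeR adjusted p = 0.996) and -0.77 with NWD1 against AIN76A (-1.66 to 0.13, edgeR adjusted p = 0.878). With NWD2 against NWD1 it was -0.22, and it turned to 0.15 without NWD2 replicate 1. The NWD2 value against AIN76A was -0.63 without NWD2 replicate 1 and -1.54 without NWD2 replicate 2.

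Itln1, the lectin gene, had 2014 and 3840 CPM with NWD2, 2867, 2389 and 3454 CPM with NWD1, and 7215 and 4561 CPM with AIN76A. All 5 libraries of the Western-style diets were again below both controls. The means were 2927 ± 1291 (SD, n = 2), 2904 ± 534 (SD, n = 3) and 5888 ± 1877 CPM (SD, n = 2), so that NWD2 and NWD1 were close together. The log2 fold changes against AIN76A were -1.01 with NWD2 (95% interval -1.97 to -0.05) and -1.02 with NWD1 (-1.87 to -0.17), with edgeR adjusted p of 0.996 and 0.878. Without AIN76A replicate 1 they were -0.64 and -0.66, and the NWD2 value was -0.66 without NWD2 replicate 1 and -1.54 without NWD2 replicate 2. Between NWD2 and NWD1 the interval ran from -0.85 to 0.88. Itln1 followed Lyz1 most closely of the 8, with 35.2 to 53.2 Itln1 counts per 100 Lyz1 counts over the 7 libraries.

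Ang4 had 311 and 459 CPM with NWD2, 571, 363 and 1070 CPM with NWD1, and 1136 and 629 CPM with AIN76A. Both NWD2 libraries were below both controls, whereas NWD1 replicate 3 reached the level of the controls and NWD1 replicate 2 lay within the range of NWD2. The log2 fold change was -1.20 with NWD2 against AIN76A (95% interval -2.36 to -0.03, edgeR adjusted p = 0.996), and -0.71 without AIN76A replicate 1. With NWD2 against NWD1 it was -0.79, and -0.28 without NWD1 replicate 3. With NWD1 against AIN76A it was -0.40, but -0.92 without NWD1 replicate 3 and 0.078 without AIN76A replicate 1. Ang4 is the member of the angiogenin family of mouse Paneth cells. Its relative Ang had 24.9 to 58.3 TPM, so that Ang4 was 19.5 to 46.1 times as high, and Ang2, Ang5 and Ang6 had at most 0.22 CPM in any library.

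Pla2g2a had 13.1 and 19.9 CPM with NWD2, 22.2, 21.3 and 28.6 CPM with NWD1, and 46.0 and 25.6 CPM with AIN76A. Both NWD2 libraries were the lowest of the 7, and NWD1 overlapped the controls. Its log2 fold change was -1.12 with NWD2 against AIN76A (95% interval -1.95 to -0.29, edgeR adjusted p = 0.996) and -0.58 with NWD1 against AIN76A (-1.32 to 0.16). Without AIN76A replicate 1 these were -0.63 and -0.10, and without AIN76A replicate 2 the NWD1 value was -0.94. With NWD2 against NWD1 the value was -0.54, and it was -0.30 without NWD2 replicate 1 and -0.86 without NWD2 replicate 2. C57BL/6 mice carry a frameshift in this gene, and RefSeq lists it for that strain as a transcribed pseudogene. The labels give the alleles of these mice but not their background strain, so whether the transcript codes for an active enzyme is not known from them.

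Nupr1 had 8.07 and 10.7 CPM with NWD2, 14.0, 10.8 and 22.2 CPM with NWD1, and 25.1 and 17.4 CPM with AIN76A. The NWD2 libraries were the 2 lowest, although NWD1 replicate 2, at 10.8 CPM, was nearly level with the higher of them. NWD1 overlapped the controls through its replicate 3. The log2 fold changes were -1.18 with NWD2 against AIN76A (95% interval -2.08 to -0.28, edgeR adjusted p = 0.996), -0.45 with NWD1 against AIN76A and -0.73 with NWD2 against NWD1 (-1.57 to 0.10, edgeR adjusted p = 0.677). With NWD1 against AIN76A it was -0.17 without AIN76A replicate 1, -0.68 without AIN76A replicate 2, -0.23 without NWD1 replicate 2 and -0.78 without NWD1 replicate 3. The NWD2 against NWD1 value was -0.40 without NWD1 replicate 3.

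Mmp7, the protease that activates alpha-defensins, had 138 and 179 CPM with NWD2, 101, 88.0 and 193 CPM with NWD1, and 278 and 147 CPM with AIN76A. The diets overlapped, since AIN76A replicate 2 lay among the libraries of both other diets. Log2 fold changes were -0.42 with NWD2 and -0.74 with NWD1 against AIN76A, and without AIN76A replicate 1 they were 0.11 and -0.22. Without NWD1 replicate 3 the NWD1 value was -1.17, and that of NWD2 against NWD1 went from 0.32 to 0.75. Mmp10 and Mmp3, other matrix metalloproteinases, had no counts in any library.

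Habp2 had 19.4 and 46.5 CPM with NWD2, 26.3, 27.7 and 48.6 CPM with NWD1, and 51.4 and 45.4 CPM with AIN76A. The controls differed little, while 1 NWD2 and 1 NWD1 library reached their range. Log2 fold changes against AIN76A were -0.56 with NWD2 and -0.50 with NWD1, and the NWD2 value was -0.10 without NWD2 replicate 1 and -1.31 without NWD2 replicate 2. The NWD1 value was -0.84 without NWD1 replicate 3. Hgfac, a related serine protease gene, was higher than Habp2 on the TPM scale in all 6 libraries with a TPM column, at 27.3 to 57.3 against 11.6 to 28.5 TPM.

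Mptx2 did not share the order of libraries seen for the other genes. It had 384 and 123 CPM with NWD2, 114, 145 and 535 CPM with NWD1, and 400 and 147 CPM with AIN76A. Each diet thus held 1 library at 384 CPM or above and the rest at 147 CPM or below. The means were 254 ± 185 (SD, n = 2), 265 ± 235 (SD, n = 3) and 274 ± 179 CPM (SD, n = 2), and the log2 fold changes lay between -0.11 and -0.05, with positive values under library size scaling (0.087 with NWD1 against AIN76A) and with single libraries left out. With so large a spread the 95% interval with NWD2 against AIN76A ran from -1.92 to 1.70. Its relation to Lyz1 went from 1.40 Mptx2 counts per 100 Lyz1 counts in NWD1 replicate 1 to 9.32 in NWD2 replicate 1, a range of 6.65 times that no scaling of the libraries can alter. For the other genes that range was between 1.51 times, for Itln1, and 2.70 times, for Mmp7.

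**Figure D3:**
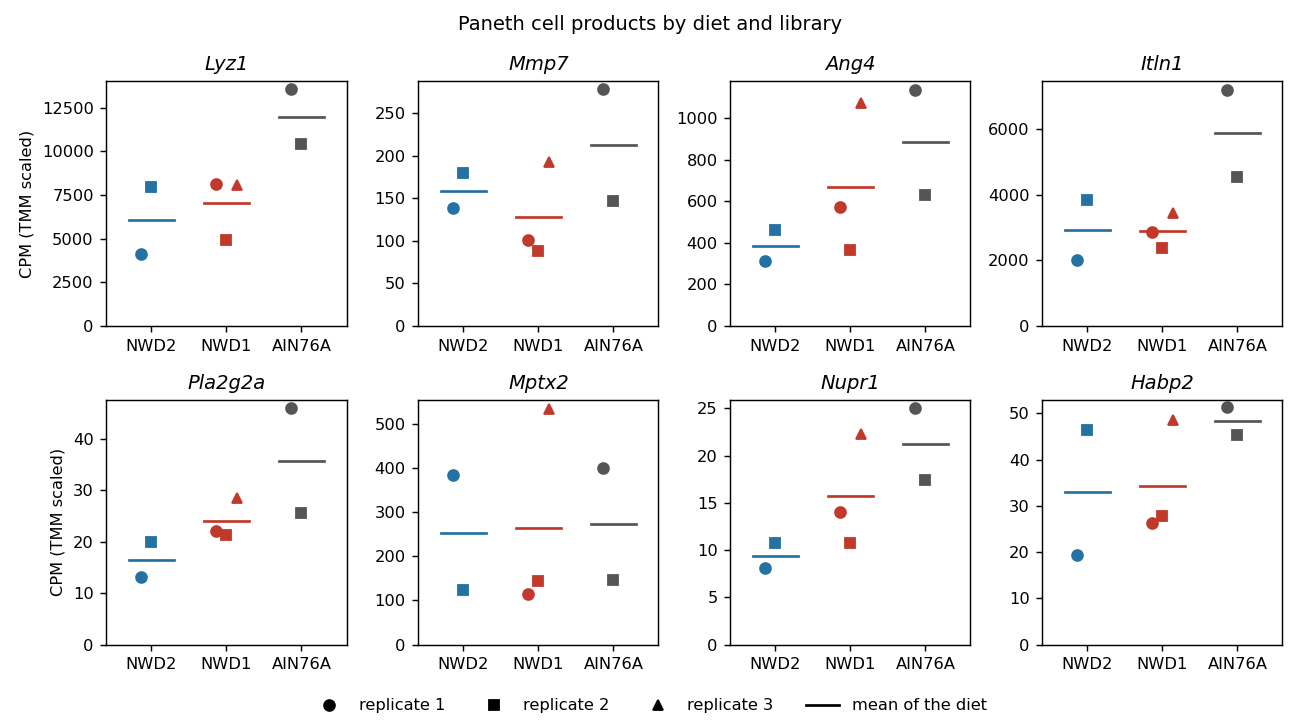
CPM scaled by TMM (linear axes from 0) of the 8 genes in each library, with NWD2, NWD1 and AIN76A from left to right, the replicate number as the shape and the mean of the diet as a line. For Lyz1 and Itln1 all 5 libraries of NWD2 and NWD1 lie below both AIN76A libraries, and for Mptx2 each diet has 1 library far above the others.

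**Figure D4:**
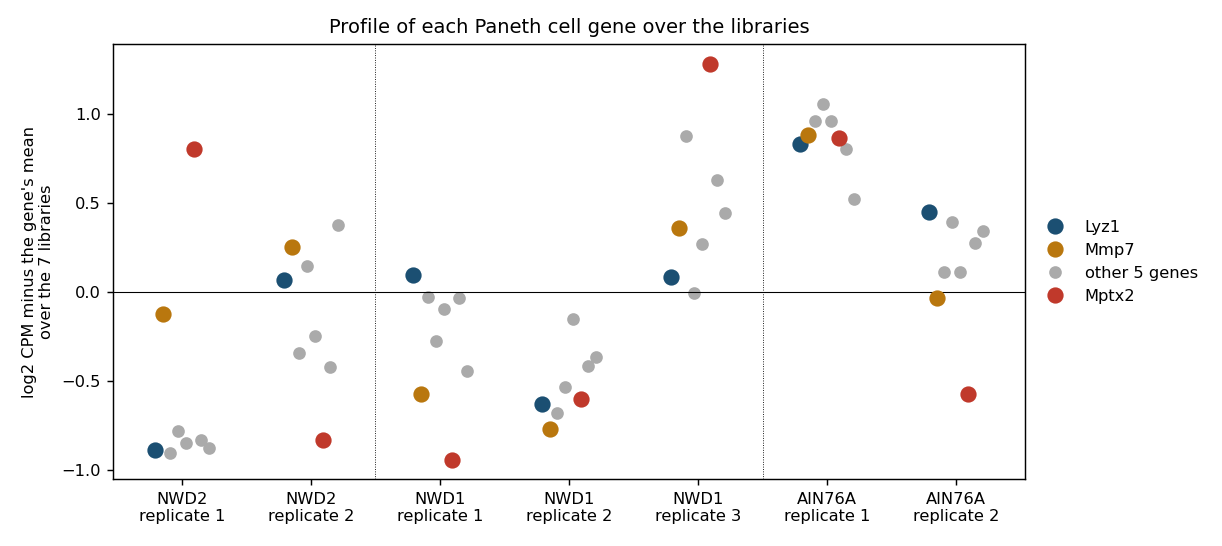
Log2 CPM of each gene in each library minus its mean over the 7 libraries, with Lyz1, Mmp7 and Mptx2 in colour and the other 5 genes in grey. All 8 genes are above 0 in AIN76A replicate 1, and in NWD2 replicate 1 Mptx2 is at 0.81 while Lyz1 is at -0.89.

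Of the family relatives of the 8 genes, those that averaged at least 1 CPM are given here. Mptx1 had 4.18 and 6.89 CPM with NWD2, 14.4, 11.6 and 21.9 CPM with NWD1, and 30.0 and 10.3 CPM with AIN76A. Both NWD2 libraries were below all others, and the log2 fold changes were -1.87 (SE 0.54) against AIN76A and -1.53 (SE 0.50) against NWD1, with edgeR adjusted p of 0.955 and 0.533. Pla2g2f, another secreted phospholipase gene, had 5.73 and 7.87 CPM with NWD2, 11.5, 9.70 and 14.1 CPM with NWD1, and 18.7 and 13.1 CPM with AIN76A, again with both NWD2 libraries lowest and with a log2 fold change of -1.23 against AIN76A (SE 0.35, edgeR adjusted p = 0.955). Lyz2, Pla2g5 and Pla2g2d were between 0.605 and 4.58 CPM in every library, and Ang and Hgfac between 19.5 and 75.5 CPM.

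Other genes listed for Paneth cells, not all of them exclusive to these cells, were read from lists of regulators, stem cell niche signals and further products. Of 22 further products, 17 were lower and 5 higher with NWD2 against AIN76A (median log2 fold change -0.87), 18 lower and 4 higher with NWD1 against AIN76A (-0.53), and 10 lower and 12 higher with NWD2 against NWD1 (0.036). None passed the edgeR adjusted p in any comparison. NWD1 replicate 3 stood apart in 4 alpha-defensin genes, chosen after their values were seen: Defa20, Defa21, Defa22 and Defa26 had 2.32, 0.531, 9.30 and 6.51 CPM there and 24.2 to 156 CPM in every other library. Without that library, 20 of the 22 were lower with NWD1 against AIN76A (-0.84), and 12 were lower with NWD2 against NWD1 (-0.053). Clps, encoding the lipase cofactor colipase, had 169 and 355 CPM with NWD2, 343, 262 and 268 CPM with NWD1, and 836 and 464 CPM with AIN76A, with all 5 libraries of the Western-style diets below both controls. Reg4, a secreted lectin-like protein gene, had 167 and 376 CPM with NWD2, 663, 866 and 550 CPM with NWD1, and 770 and 807 CPM with AIN76A, so NWD1 was nearer to AIN76A than to NWD2. The sums of the enteroendocrine markers given below had that order too, and the part of such cells in the Reg4 values was not tested. The alpha-defensin gene Defa17 had 205 and 423 CPM with NWD2, 297, 340 and 248 CPM with NWD1, and 956 and 515 CPM with AIN76A, and again none of the 5 libraries reached the controls.

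Of 21 regulators tested, 17 were lower and 4 higher with NWD2 against AIN76A (median -0.40), 11 lower and 10 higher with NWD1 against AIN76A (-0.041, and 0.018 without NWD1 replicate 3), and 16 lower and 5 higher with NWD2 against NWD1 (-0.25), and none passed the edgeR adjusted p. Agr2, a protein folding gene of secretory cells, had 451 and 663 CPM with NWD2, 564, 520 and 690 CPM with NWD1, and 1790 and 718 CPM with AIN76A, where replicate 1 stood far above the rest. Fgfr3, the receptor gene through which Paneth cell number is regulated in mice, had 11.3 and 6.60 CPM with NWD2, 16.1, 19.4 and 26.3 CPM with NWD1, and 11.3 and 14.9 CPM with AIN76A, and was the regulator of smallest p (log2 fold change -1.20 with NWD2 against NWD1, SE 0.36, edgeR adjusted p = 0.51). Creb3l1, an endoplasmic reticulum stress-sensing factor gene, had 9.78 and 9.59 CPM with NWD2, 15.4, 14.3 and 18.4 CPM with NWD1, and 17.8 and 16.0 CPM with AIN76A, so NWD2 was lowest without overlap.

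The 7 tested niche signals had values of both signs in each comparison, with medians of 0.082 with NWD2 and -0.020 with NWD1 against AIN76A and -0.18 with NWD2 against NWD1. None passed the edgeR adjusted p. Wnt3, the Wnt ligand that mouse Paneth cells supply, had 3.83 and 7.42 CPM with NWD2, 6.39, 5.09 and 8.90 CPM with NWD1, and 14.0 and 8.75 CPM with AIN76A, so that NWD2 lay below AIN76A and NWD1 overlapped it. Cd24a, a surface protein gene used to sort Paneth cells and also expressed by tuft cells, had 128 and 137 CPM with NWD2, 313, 148 and 218 CPM with NWD1, and 336 and 202 CPM with AIN76A, and the NWD2 libraries were lowest. Tgfa, an epidermal growth factor receptor ligand, had 8.11 and 8.59 CPM with NWD2, 9.33, 11.2 and 11.7 CPM with NWD1, and 6.18 and 8.29 CPM with AIN76A, with NWD1 above AIN76A in every library.

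Markers of other crypt cell types are given beside these genes. The 16 goblet cell markers summed to 11273 to 14170 CPM with NWD2, 6736 to 11770 CPM with NWD1 and 11226 to 20055 CPM with AIN76A, and AIN76A replicate 1 was highest, as for most of the 8 genes. Of these markers, 10 were lower and 6 higher with NWD2 against AIN76A (median log2 fold change -0.79). At an unadjusted edgeR p under 0.05 there were 6 of the 16, beside 3.83% of all genes tested, and Clca1 among them was higher (1.84). With NWD1 against AIN76A 12 were lower and 4 higher (-0.64, and -1.02 with 14 lower without NWD1 replicate 3). There 7 of the 16 had an unadjusted edgeR p under 0.05, beside 3.42% of all genes tested. Both medians had the sign of the medians of the 8 genes. Tff3, a goblet cell trefoil peptide gene, had 1280 and 1225 CPM with NWD2, 1113, 1091 and 1091 CPM with NWD1, and 4180 and 1387 CPM with AIN76A. Galnt12, the goblet marker of smallest unadjusted edgeR p, had 13.6 and 6.10 CPM with NWD2. Its levels were 24.6, 24.9 and 30.2 CPM with NWD1 and 21.5 and 22.2 CPM with AIN76A. The 18 enteroendocrine markers summed to 563 to 702 CPM with NWD2, 1782 to 2235 CPM with NWD1 and 2069 to 2429 CPM with AIN76A, and the 14 tuft cell markers to 214 to 235, 297 to 764 and 407 to 719 CPM in the same order of diets. All 18 and all 14 were lower with NWD2 against AIN76A (medians -1.78 and -1.76), and none passed the edgeR adjusted p. At an unadjusted edgeR p under 0.05 there were 15 and 11 of them, beside 3.83% of all genes tested. With NWD1 against AIN76A, 11 of the 18 (median -0.14) and 5 of the 14 (0.013) were lower. The 16 enterocyte markers summed to 53735 to 113951 CPM with NWD2, highest in replicate 2, 53772 to 72640 CPM with NWD1 and 49114 to 59847 CPM with AIN76A. The 10 stem cell markers summed to 589 to 1442, 500 to 1162 and 544 to 1052 CPM in that order. All markers of these lists had counts. The part of other cell types in the values of the 8 genes was not tested.

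Markers of cells outside the epithelium were low. None of those tested passed the edgeR adjusted p. The 20 leukocyte and macrophage markers, Lyz2 among them, together reached 19.6 to 37.6 CPM with NWD2, 24.2 to 47.7 CPM with NWD1 and 17.9 to 22.8 CPM with AIN76A. Of the 15 tested, 12 were higher and 3 lower with NWD2 against AIN76A, with 10 above and 3 below without overlap. Of all genes tested, 13.2% lay above and 13.2% below in that way. With NWD1 against AIN76A, 14 were higher and 1 lower, with 6 above without overlap, beside 11.4% of all genes tested. The 3 below with NWD2 were Ptprc, Lyz2 and C1qa, with log2 fold changes of -1.30, -0.71 and -2.63 against AIN76A. C1qa had 0.124 and 0.129 CPM with NWD2. Its levels were 0.745, 0.763 and 0.332 CPM with NWD1 and 0.720 and 0.871 CPM with AIN76A. Laptm5, a lysosomal gene of blood cells, had 0.495 and 1.11 CPM with NWD2, 0.352, 0.935 and 2.19 CPM with NWD1, and 0.018 and 0.121 CPM with AIN76A. The 13 stromal markers together reached 2.75 to 3.30, 5.51 to 9.85 and 6.21 to 10.3 CPM in the same order, and Cdh5, of endothelial cells, had no counts. The low NWD2 sum lay in Vim, with 2.12 and 1.14 CPM with NWD2, 8.75, 7.54 and 4.45 CPM with NWD1, and 5.71 and 9.31 CPM with AIN76A. The fibroblast genes Col3a1 and Dcn went the other way, at 0.225 to 0.426 CPM in the NWD2 libraries and at most 0.166 CPM in any other. The leukocyte sum is far below the 4122 to 13564 CPM of Lyz1 but of the size of Nupr1, Pla2g2a and Habp2, and the part of such cells in the values of these genes was not tested.

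The genes whose level over the 7 libraries was most like that of Lyz1 were sought among 5930 other genes of sufficient level. They were Rnase1, a secreted ribonuclease gene (Pearson r = 0.979, Spearman rho = 0.964), Defa24, an alpha-defensin gene (0.938 and 0.893), Clps (0.927 and 0.893), Bco2, encoding a carotenoid-cleaving enzyme (0.917 and 0.714), and Tmed6, of a family of secretory cargo proteins (0.916 and 0.964). They are the highest of many coefficients over 7 libraries that share diets, so they describe these libraries only. Rnase1 had 56.2 and 118 CPM with NWD2, 121, 75.2 and 126 CPM with NWD1, and 267 and 142 CPM with AIN76A, and its libraries of both Western-style diets all lay below both controls. Among the 8 genes themselves, Pearson r with Lyz1 over the same 7 libraries ran from 0.65 for Mmp7 to 0.95 for Itln1, apart from Mptx2, for which it was 0.026. Ang4 and Nupr1 were the pair of highest r among the 8, at 0.98.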

How the data were processed

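Per the labels' protocols, SMART-Seq v4 served to prepare RNA of the sorted cells and Nextera XT to build paired-end libraries, which carry no strand information. The counts that the authors deposited are integers for each Ensembl gene ID. STAR 2.4.2a, HTSeq 0.6.1, edgeR without a version and build mm9 are named in the submitters' processing notes, without roles; the annotation and the handling of reads that match several genes are not given in the sources used here. The deposited TPM values sum to the same total in each column, and their gene lengths are not stated; 1 column matched no sample and was not used.

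Differences were tested by quasi-likelihood in edgeR 4.0.16 (R 4.3.3), after filterByExpr and TMM, with robust dispersion. All 7 libraries entered 1 fit with diet as the only term, leaving 4 residual degrees of freedom; 14626 genes were tested and adjusted together, at a threshold of 0.05. An exact permutation test cannot go below p = 0.333 with 2 against 2 libraries or 0.1 with 3 against 2, and none was used. Fits were tested on simulated counts. The alternatives were other scalings and filters, DESeq2 1.42.0, limma 3.58.1 (voom, and log2(TPM + 1)), replicate, sex and i5 terms, 2 diets only, an adjusted p under 0.1, thinned counts and each library left out. Of 175 symbols in the lists, 171 matched the table. All 8 genes were named, as was each relative averaging at least 1 CPM, and the 5 genes most like Lyz1, among genes averaging 4 or more on edgeR's log2 CPM scale. From some other lists at most 3 genes of smallest unadjusted edgeR p were named, and further list genes for the patterns stated with them. The 8 genes and the lists were chosen with earlier results of these data known. Sequences were aligned globally with Biopython 1.88.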

Additional observations from a re-analysis of the deposited data

How the results depend on the processing

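None of the 8 genes passed the adjusted p in any of the 3 comparisons under any alternative run. Of 456 log2 fold changes of single genes under 19 alternatives, 428 kept their direction and 28 turned. Over all genes, the number called with NWD1 against AIN76A was 0, against 1 by DESeq2, 1 by limma on log2(TPM + 1) and 85 with no filter on low counts. With NWD2 against AIN76A it was 0, against 52 by DESeq2, 190 with no filter, 6 with only the 2 diets in the fit, 1 with an i5 index term and 1 with a replicate block. With NWD2 against NWD1 it was 0, against 174 by DESeq2, 384 with no filter, 2 with an i5 term and 1 by limma on log2(TPM + 1), and 0 to 1 with a library left out. The median of the 8 with NWD2 against NWD1, -0.14, was -0.68 with an i5 term and between -0.78 and 0.022 with a library left out. An alternative chosen after seeing the data counted the 8 genes lying below without overlap, with each library left out. With NWD2 against AIN76A there were 5 to 8, beside 26.1% to 39.3% of all genes tested. The number was 2 to 8 with NWD1 against AIN76A, beside 13.3% to 30.8%. It was 2 to 6 with NWD2 against NWD1, beside 18.8% to 30.6%.

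The genes that turned with a library left out had these ranges: Ang4 with NWD1 against AIN76A -0.92 to 0.078, Mmp7 with NWD2 against AIN76A -0.80 to 0.11, Mptx2 -1.08 to 0.84 with NWD1 against AIN76A, -1.20 to 0.79 with NWD2 against AIN76A and -1.14 to 0.97 with NWD2 against NWD1, and, in that last comparison, Habp2 -0.80 to 0.41, Itln1 -0.52 to 0.37 and Lyz1 -0.77 to 0.15. Under other settings, Itln1 with NWD2 against NWD1 was -0.010 with a filter of 1 CPM in 2 libraries, -0.24 with an i5 term, -0.29 with library size scaling, -0.12 by limma on log2(TPM + 1), -0.057 by limma voom, -0.11 with a sex term and -0.022 with thinned counts, and Mmp7 was -0.28 with an i5 term. Mptx2 was 0.087 with library size scaling and 0.25 with a sex term for NWD1 against AIN76A, and 0.55 by limma on log2(TPM + 1) and 0.038 by limma voom for NWD2 against NWD1. With a replicate block, Habp2 was 0.21 and Mptx2 0.67 for NWD2 against NWD1. The cause of these turns was not tested.

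Library size scaling moved the median of all genes to 0.11, -0.15 and -0.19 for NWD1 against AIN76A, NWD2 against AIN76A and NWD2 against NWD1, and that of the 8 genes in the last of these to -0.44. Libraries share replicate numbers, but only numbers 1 and 2 occur in all diets and nothing says that they mark a shared animal or day; deviations of same-numbered libraries correlated across genes at 0.063 to 0.324. With a replicate block the medians were -0.87, -0.99 and 0.031 in the same order. Thinning every library to the depth of NWD1 replicate 3, the shallowest, left 0 genes called in each comparison.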

Other observations

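Reg3b and Reg3g, genes of secreted antimicrobial lectins, were high in 2 of the 3 libraries in which Mptx2 was high, a pattern chosen after the values were seen. Reg3b had 23410 and 1072 CPM with NWD2, 1038, 881 and 10368 CPM with NWD1, and 1657 and 1396 CPM with AIN76A. Reg3g had 15031 and 1285 CPM with NWD2, 870, 749 and 6215 CPM with NWD1, and 2105 and 1632 CPM with AIN76A. Mptx2 was also high in AIN76A replicate 1, at 400 CPM, where neither Reg3 gene stood far above AIN76A replicate 2.

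The genes most like Mptx2 over the 7 libraries were Gpr35, a G protein-coupled receptor gene (Pearson r = 0.950, Spearman rho = 0.964), Batf2, a transcription factor gene (0.937 and 0.964), and Zfp672, Parm1 and Paqr4 (0.911, 0.878 and 0.872 for Pearson r), and none of them was among those most like Lyz1. Gpr35 had 17.7 and 14.4 CPM with NWD2, 13.8, 16.1 and 22.4 CPM with NWD1, and 19.0 and 14.7 CPM with AIN76A, a far smaller spread than that of Mptx2. These coefficients are the highest among 5930 genes over 7 libraries and are given as a description.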
